A study of Mus musculus with 16 samples.

Results

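Interferon-stimulated genes were followed as a list of 39 genes in cultured mouse airway epithelium. The 39 were chosen by symbol, with earlier results of these data known. Each matched 1 Ensembl identifier among the 49315 in the count table, and all 39 were among the 15993 genes tested. The cells were murine tracheal epithelial cell cultures (MTECs), primary tracheal cells grown at an air-liquid interface so that they differentiate into basal, secretory and ciliated cells. They came from male and female mice on the C57BL/6J background, either WT or labelled KO for LMAN1, a cargo receptor that carries proteins from the endoplasmic reticulum to the Golgi. Cultures were left naive or given 20 µg/ml house dust mite (HDM) extract overnight, so that sex, genotype and HDM made 8 groups of 2 libraries. Tracheas were pooled, and the cells of all groups were grown on inserts coated with matrix laid down by 3T3 fibroblasts. The labels give no ages for the mice. Levels are given as CPM, the count of a gene divided by its library's total and put on a common scale, after TMM scaling, a correction for library composition.

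Interferons are secreted proteins that a cell releases when it senses viral or other foreign nucleic acid. Type I and type III interferons bind surface receptors, activate the kinases JAK1 and TYK2, and drive a complex that holds STAT2 and IRF9 onto a DNA element called the ISRE. Interferon gamma acts at a different element, GAS. The genes so switched on encode sensors of viral RNA, RNA-binding blockers of translation, GTPases that attack vacuoles and virus particles, the ubiquitin-like protein ISG15, and other antiviral effectors. Airway epithelium is a main site of type III interferon action.

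The DNA before the start sites of 6 members is shown first. Of these, Ifit3, Ifit3b, Isg15, Gbp3 and Rsad2 were among the members that rose after HDM in female WT cultures, and Isg20 moved the other way. The 6 are examples and do not stand for all members. Each is the 250 bases before an annotated start, 5′ to 3′ on the gene's own strand, from RefSeq on GRCm38.p6. Capitals mark each ISRE core, searched on both strands as 2 copies of GAAA with any 2 bases between them (on the other strand, 2 copies of TTTC), and cores that overlap form 1 longer run.
Ifit3 (chr19:34583279-34583528, plus strand): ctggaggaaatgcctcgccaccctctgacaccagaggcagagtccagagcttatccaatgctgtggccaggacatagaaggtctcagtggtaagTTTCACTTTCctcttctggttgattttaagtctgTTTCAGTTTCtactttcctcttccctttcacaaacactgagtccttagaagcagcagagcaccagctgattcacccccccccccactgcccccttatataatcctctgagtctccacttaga
Ifit3b (chr19:34607707-34607956, plus strand): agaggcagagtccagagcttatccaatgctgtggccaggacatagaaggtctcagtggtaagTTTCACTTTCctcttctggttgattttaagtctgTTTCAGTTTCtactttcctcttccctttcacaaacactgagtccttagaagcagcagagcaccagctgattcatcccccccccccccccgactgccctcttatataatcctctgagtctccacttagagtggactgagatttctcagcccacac
Isg15 (chr4:156200819-156201068, minus strand): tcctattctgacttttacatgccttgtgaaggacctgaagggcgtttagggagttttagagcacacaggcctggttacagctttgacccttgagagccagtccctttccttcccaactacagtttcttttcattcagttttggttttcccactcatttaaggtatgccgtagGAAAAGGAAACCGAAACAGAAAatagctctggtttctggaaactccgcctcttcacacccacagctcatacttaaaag
Gbp3 (chr3:142559794-142560043, plus strand): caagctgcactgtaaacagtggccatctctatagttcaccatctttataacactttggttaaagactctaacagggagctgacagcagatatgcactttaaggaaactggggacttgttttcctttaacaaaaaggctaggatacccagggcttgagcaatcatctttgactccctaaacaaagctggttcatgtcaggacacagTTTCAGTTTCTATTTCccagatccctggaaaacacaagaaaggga
Rsad2 (chr12:26456453-26456702, minus strand): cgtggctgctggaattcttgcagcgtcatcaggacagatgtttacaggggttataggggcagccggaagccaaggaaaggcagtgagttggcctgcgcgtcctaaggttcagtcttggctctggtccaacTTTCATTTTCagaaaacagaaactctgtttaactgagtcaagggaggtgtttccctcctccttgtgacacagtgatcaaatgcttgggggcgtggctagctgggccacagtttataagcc
Isg20 (chr7:78913174-78913423, plus strand): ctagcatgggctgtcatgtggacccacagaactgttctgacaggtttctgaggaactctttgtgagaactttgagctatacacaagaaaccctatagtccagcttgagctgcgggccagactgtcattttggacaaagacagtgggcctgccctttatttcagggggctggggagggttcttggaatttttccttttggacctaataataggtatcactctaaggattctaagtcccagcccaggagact

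Ifit3 and Ifit3b each held 2 cores with the same letters, starting 156 and 122 bases before the start in Ifit3 and 188 and 154 bases before it in Ifit3b. Isg15 held 3 overlapping cores between bases -78 and -66, counted by their first base. Gbp3, shown at the window with the most cores of its 2, held 2 overlapping cores at -45 and -39, and Rsad2 held 1 core at -120. None of the 3 windows of Isg20 held the core, which says only that these letters were not in those windows. Of the 30 members with a window of 250 bases before and 50 after a start, 17 (56.7%) held at least 1 ISRE core, against 1079 of 27025 genes (3.99%) in the whole table. Among these 30, the core was present in 13 of the 21 that were higher after HDM in female WT cultures and in 4 of the 8 that were not called there. Ifit2, Cmpk2 and Ifi44 also rose in those cultures, and their windows held no ISRE core. The GAS core TTCNNNGAA, which reads the same on both strands, was present in 9 of the 30 members (30%) and in 9.55% of all genes. A match describes the letters and is not evidence of binding.

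Library totals ran from 21860698 to 43442188 counts, and the 2 libraries of each group differed by more than counting noise. Lman1 checked the genotype labels. Its level over the 8 WT libraries was 121 ± 14.3 CPM (SD, n = 8), the lowest at 101 and the highest at 144. Among libraries labelled KO it was 12.8 in both female naive libraries, 14.2 and 63.4 in the male naive libraries, 66.6 and 78.1 in the female HDM libraries and 65 and 66 in the male HDM libraries. Thus 5 of the 8 libraries labelled KO held Lman1 above 20% of the WT mean, including all 4 given HDM, and they are called "labelled KO" throughout. The order of Xist and Ddx3y matched the labelled sex in all 16 libraries. The female WT HDM libraries stood apart beyond interferon genes. Summed CPM of 8 secretory markers was 4656 and 3766 there, against 7232 to 20281 in the other 14 libraries. For 6 basal markers it was 4007 and 2000, against 7311 to 13649. The lowest secretory sums of the other 14 were in the female labelled KO HDM libraries, at 7880 and 7232. In female labelled KO cultures 5 of the 8 secretory markers were lower after HDM, while 5.77% of all genes were. Of 8 ciliated markers 4 were lower after HDM in female WT cultures (50%, against 22.4% of all genes). The median log2 fold change over the 8 was -3.28 there. It was -1.51 in female and -1.69 in male labelled KO cultures, and -0.12 in male WT cultures. Summed CPM of the 8 was 86.6 and 95 in female WT HDM libraries, within the 57.3 to 156 of the other 14 libraries. Foxj1, the ciliated cell regulator, was 79.1 and 86.6 CPM in female WT HDM libraries and 44.8 to 97.5 over all libraries. The 7 general airway epithelium markers split, 4 higher and 3 lower. Krt8 was 3083 and 3267 CPM in female WT HDM libraries against 1063 and 1352 in naive ones, while Krt19 was 1813 and 1399 against 3685 and 3528. In female labelled KO libraries Krt8 was 2327 and 2080 after HDM against 1011 and 1312 in naive ones. Krt19 was 3206 and 2599 against 3908 and 4226 there. In these bulk samples, fewer cells of a type and less RNA per cell cannot be told apart.

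The first comparison asked how HDM changed interferon-stimulated genes in female WT cultures. Of the 39 members, 25 rose and 2 fell (edgeR's quasi-likelihood test, adjusted p under 0.05). Over all genes tested, 20.6% were higher and 22.4% lower in the same comparison, so the background of change was large in both directions. The median log2 fold change over the members was 1.08, against -0.02 over all genes. As the list was chosen with earlier results of these data known, this contrast with all genes is not an independent test. The called members that rose included those encoding IFIT proteins, guanylate-binding proteins and ISG15, and the largest estimated increase was 9.17-fold, in Ifit3b. Mx1 and Isg20 fell.

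**Figure D1:**
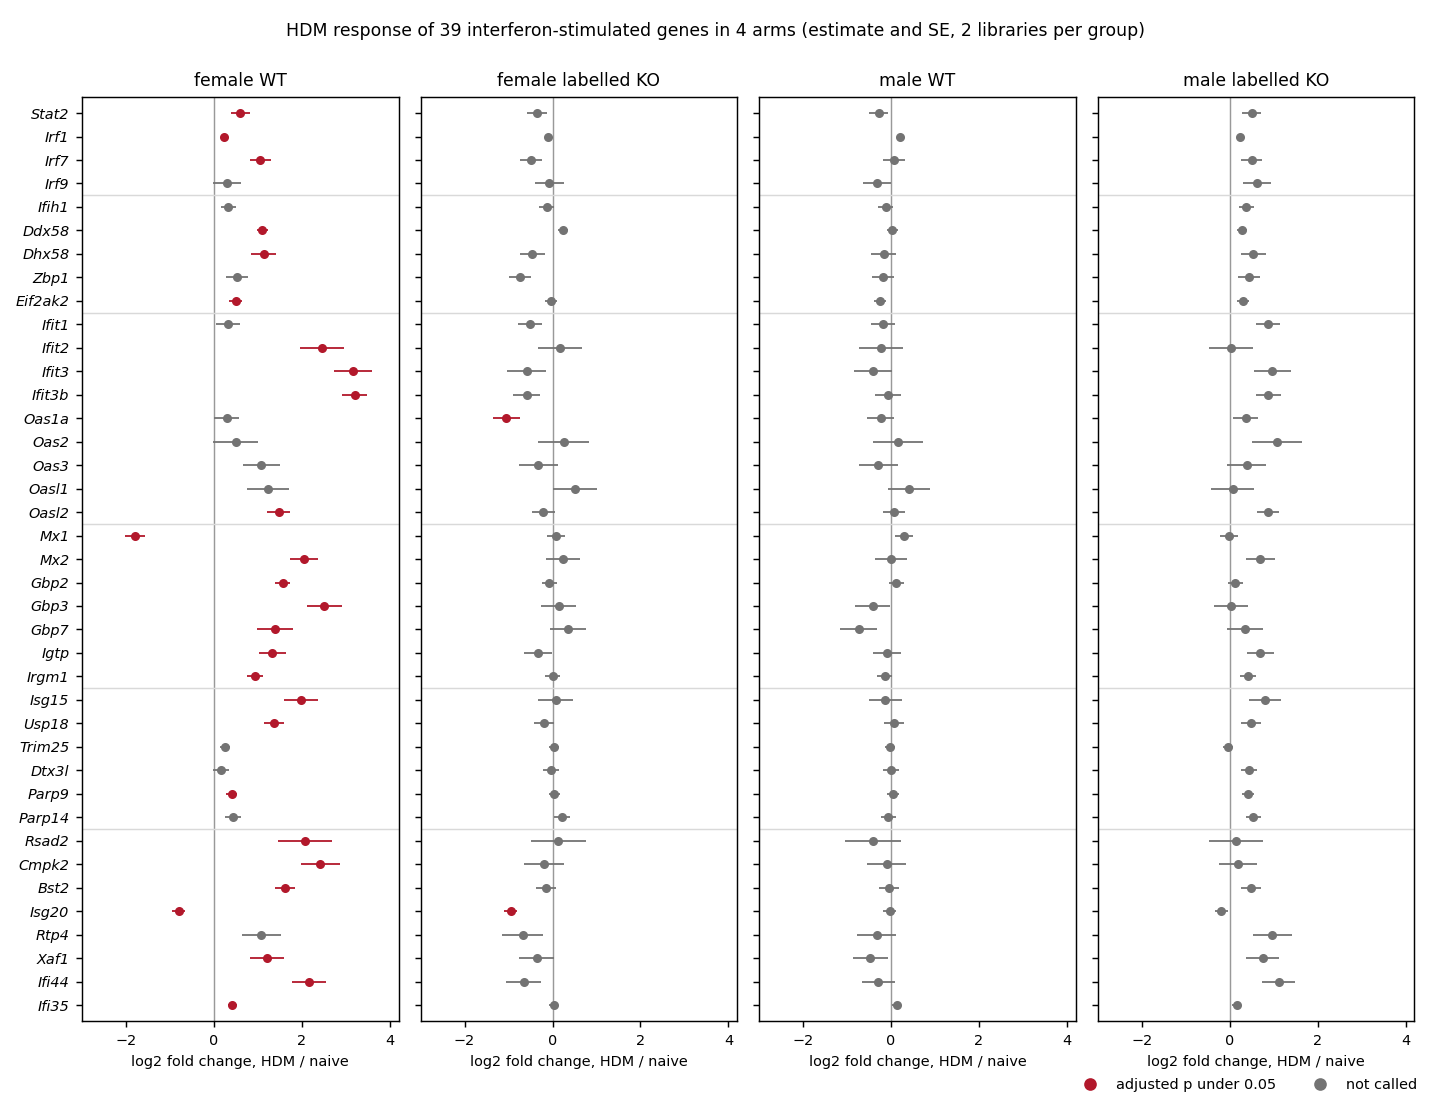
log2 fold change after HDM (x axis) with its SE for each of the 39 members (y axis, grouped by function and separated by grey lines) in the 4 arms of 2 naive and 2 HDM libraries each; red points passed an adjusted p of 0.05. In female WT cultures 25 points are red to the right of 0 and 2 to the left, in female labelled KO cultures 2 are red, both to the left, and in male cultures none is red.

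Of the 4 transcription factor genes, 3 rose. Irf7, which amplifies interferon production, was 17 and 17.2 CPM in female WT naive libraries and 42.8 and 28.1 after HDM, and no other library was above 21.3. Its 2 HDM libraries were the highest of the 16, and the log2 fold change was 1.05 ± 0.24 (SE, adjusted p = 0.00476). Stat2, a signal transducer of type I and III interferons, was 19.2 and 19.7 CPM in naive libraries and 36.2 and 22.6 after HDM. The change of Stat2 was 0.60 ± 0.22 (adjusted p = 0.0464), and its HDM range overlapped those of male libraries, which reached 31.9. Irf1, an early target of interferon gamma, rose by 0.23 ± 0.06 (adjusted p = 0.00837). Irf9, the DNA-binding partner of STAT2, had an estimate of 0.29 ± 0.32 (adjusted p = 0.486).

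Among 5 sensors of foreign nucleic acid, 3 rose. Dhx58 (LGP2, a regulator of RNA sensing) was 5.16 and 5.33 CPM in naive and 13.5 and 9.42 in HDM libraries, against at most 8.67 elsewhere. Ddx58 (RIG-I, which detects viral RNA ends) was 48.6 and 48.5 CPM in naive and 118 and 89.2 in HDM libraries, against at most 65.6 elsewhere. For both genes the HDM libraries lay above all other 14. The log2 fold changes were 1.13 ± 0.28 for Dhx58 (adjusted p = 0.00658) and 1.10 ± 0.12 for Ddx58 (adjusted p = 3.77e-05). Eif2ak2 (PKR, which stops translation when it binds double-stranded RNA) rose by 0.49 ± 0.14 (adjusted p = 0.0143). Ifih1 (MDA5, a sensor of long viral RNA) and Zbp1 (a sensor of Z-form nucleic acid) had estimates of 0.32 ± 0.17 and 0.53 ± 0.25 (adjusted p = 0.158 and 0.104).

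The IFIT proteins bind foreign RNA caps and the OAS enzymes make a messenger that activates RNase L. Here 4 of 9 rose. Ifit3 (chr19:34583531-34588731 on GRCm38, ENSMUSG00000074896) was 10.4 and 11.3 CPM in female WT naive libraries and 107 and 86.7 after HDM. In the female labelled KO libraries it was 6.1 and 8.05 when naive and 5 and 4.37 after HDM. In male libraries Ifit3 was 4.14 and 12.7 (WT naive), 7.62 and 4.97 (WT HDM), 5.41 and 9.01 (labelled KO naive) and 10.9 and 17.5 (labelled KO HDM). The 2 female WT HDM libraries were the highest of all 16 by a wide margin, and the 14 others lay between 4.14 and 17.5. The log2 fold change was 3.16 ± 0.43 (adjusted p = 0.000163), 8.94-fold. Ifit3b, which lies beside it (chr19:34607970-34613401, ENSMUSG00000062488), was 3.71 and 4.34 CPM in naive and 40.2 and 33.9 in HDM libraries, with the other 14 at most 7.81. Its change was 3.20 ± 0.29 (adjusted p = 8.88e-06). Of Ifit3's 50-base transcript windows, 51.2% also occur in Ifit3b, so the counts of the pair are uncertain as a split between them and their similar fold changes are not 2 independent measurements. Ifit2 rose by 2.45 ± 0.50 (adjusted p = 0.00226) and Oasl2, an OAS-like protein, by 1.47 ± 0.26 (adjusted p = 0.000819).

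The other 5 members of this class did not pass the test. Ifit1, the cap-binding member of the family, was 30.9 and 30.9 CPM in naive and 43.9 and 33.2 in HDM libraries of female WT, with an estimate of 0.32 ± 0.27 (adjusted p = 0.361). Its highest libraries were the male labelled KO HDM libraries, at 52 and 68.4 CPM. Estimates for Oas1a, Oas2, Oas3 and Oasl1, which synthesise the RNase L messenger or are related to its makers, were 0.29 ± 0.29, 0.49 ± 0.52, 1.08 ± 0.43 and 1.23 ± 0.48. Oas1a shares 57.6% of its transcript windows with Oas1g, so its counts are uncertain too.

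The dynamin-like and immunity-related GTPases all passed the test, 6 of 7 upward. Guanylate-binding proteins (GBPs) coat and break the vacuoles of intracellular microbes, and IRG proteins such as those of Igtp and Irgm1 act at the same membranes. Gbp3 (chr3:142560026-142573209) was 3.71 and 3.28 CPM in naive and 22.6 and 17.1 in HDM libraries of female WT, and the other 14 libraries had a median of 3.33 and a highest value of 5.28. Its log2 fold change was 2.51 ± 0.39 (adjusted p = 0.000365). Mx2, the second mouse Mx gene, is annotated as a polymorphic pseudogene. It was 0.727 and 1.01 CPM in naive and 4.12 and 3.13 in HDM libraries, above the 1.24 CPM maximum of the rest, with a change of 2.04 ± 0.32 (adjusted p = 0.000412). Gbp2, Gbp7, Igtp and Irgm1 rose by 1.56, 1.39, 1.33 and 0.94 on the log2 scale.

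Mx1 (chr16:97447035-97462907, minus strand, ENSMUSG00000000386), whose protein blocks influenza replication and whose gene is defective in C57BL/6 mice, went the other way. Its CPM was 9.66 and 10.1 in female WT naive libraries and 2.95 and 2.7 after HDM. Female labelled KO libraries held 9.29 and 9.38 CPM when naive and 10.4 and 9.38 after HDM. Male libraries held 11.4 and 8.88 (WT naive), 15.3 and 9.55 (WT HDM), 12.8 and 9.67 (labelled KO naive), and 11.5 and 10.7 (labelled KO HDM). The 2 female WT HDM libraries were the lowest of the 16, and none of the other 14 was below 8.88. The log2 fold change was -1.80 ± 0.23 (adjusted p = 9.2e-05), opposite to that of Mx2 in the same libraries.

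ISG15 is attached to other proteins as a tag and is removed by USP18, which also damps the type I receptor. Isg15 (chr4:156199424-156200818, ENSMUSG00000035692) was 7.92 and 10.9 CPM in female WT naive and 44.6 and 30.3 in HDM libraries. It was 5.21 and 6.63 CPM in female labelled KO naive libraries and 5.97 and 6.41 after HDM. In males it was 4.21 and 10.5 in WT naive, 7.28 and 6.15 in WT HDM, 6.52 and 10.8 in labelled KO naive and 12.9 and 17.4 in labelled KO HDM libraries. The female WT HDM libraries were again the highest, and the male labelled KO HDM libraries the next. The log2 fold change in female WT cultures was 1.98 ± 0.38 (adjusted p = 0.00139). Usp18 rose from 18.2 and 18 CPM to 52.8 and 40.5, a change of 1.37 ± 0.23 (adjusted p = 0.000598), and Parp9 by 0.40 ± 0.13 (adjusted p = 0.0268). Parp9, Parp14 and the ubiquitin ligase gene Dtx3l stand together on chromosome 16. Dtx3l, Parp14 and the ligase gene Trim25 gave estimates of 0.16 ± 0.18, 0.43 ± 0.18 and 0.25 ± 0.11 and did not pass. Parp9 and Dtx3l overlap on opposite strands, and whether the counting used strand is not given in the sources used here.

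Among the other antiviral effectors 6 rose and Isg20 fell. Cmpk2, a mitochondrial nucleotide kinase, was 6.39 and 6.02 CPM in female WT naive and 37.5 and 28.7 in HDM libraries, against at most 6.99 in the other 14. Its neighbour on chromosome 12, Rsad2 (viperin, which makes a chain-terminating nucleotide), was 7.74 and 6.83 CPM in naive and 36.8 and 24.3 in HDM libraries, against at most 7.74 in the others. The log2 fold changes were 2.42 ± 0.44 (adjusted p = 0.00103) and 2.07 ± 0.62 (adjusted p = 0.0181). Ifi44 was 9.37 and 10.2 CPM in naive and 52.5 and 34.8 in HDM libraries, a change of 2.16 ± 0.38 (adjusted p = 0.000799). Bst2 (tetherin, which holds budding virus at the membrane), Xaf1 and Ifi35 rose by 1.62, 1.21 and 0.42 on the log2 scale. Rtp4 had an estimate of 1.08 ± 0.44 (adjusted p = 0.0641). Isg20 (chr7:78913424-78920396, ENSMUSG00000039236), an RNA exonuclease, was 71.2 and 61.3 CPM in female WT naive and 42.5 and 33.3 in HDM libraries, and 63.3 and 61 in female labelled KO naive and 32.8 and 31.8 in HDM libraries. These 4 female HDM libraries were the lowest of the 16, and male libraries stayed between 59 and 85.1. The change in female WT cultures was -0.80 ± 0.15 (adjusted p = 0.00122).

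In 6 of the 8 groups the median absolute log2 difference between replicates was larger over the members than over all genes. In female WT HDM cultures 37 of 39 members were lower in replicate 2, with a median log2 difference of -0.40, while over all genes the median was -0.00. The summed CPM of 7 fibroblast markers was 48.9 in replicate 1 and 595 in replicate 2 of this group, and 2.46 to 538 in the other 14 libraries. In female WT naive libraries the same sum was 26.7 and 538 while 22 of 39 members were higher in replicate 2, and in male WT naive libraries it was 4.01 and 156 while 37 were. Of the 7 fibroblast markers 2 were called higher after HDM in female WT cultures (28.6%, against 20.6% of all genes). After HDM 3 were lower in male than in female WT cultures, and 3 were lower in labelled KO than in WT females (42.9% each, against 20.3% and 14.3% of genes). In female WT HDM libraries Dcn was 2.25 and 45.9 CPM and Lum 1.04 and 28, against at most 3.73 and 0.877 in the other 14. Of the smooth muscle markers Acta2 alone was high, at 272 and 441 CPM against at most 129 elsewhere; 0 of the 3 tested passed after HDM in female WT cultures in edgeR's test (1 at an unadjusted p under 0.05), and Myh11 was 0.25 and 0.0947 CPM there. Lymphocyte markers summed to at most 0.456 CPM in any library, leukocyte markers to 16.9 and 28.9 CPM in female WT HDM libraries against 14.6 to 38.8 elsewhere, and macrophage markers to 112 and 104 CPM against 177 to 300 elsewhere. Endothelial markers stayed between 0.829 and 2.87 CPM in all libraries. The part of these cell types in the result was not tested beyond these values. Without replicate 1 of female WT HDM the median member change was 0.81 with 19 members called, and without replicate 2 it was 1.32 with 30 called. With 1 of the 4 female WT libraries left out, 9 of the 27 called members lost their call at least once and kept their direction: Stat2, Irf1, Irf7, Dhx58, Eif2ak2, Gbp7, Parp9, Rsad2 and Xaf1. Irf7 and Dhx58 lost it only without HDM replicate 1, at 0.71 and 0.84 on the log2 scale, and Irf1 only without naive replicate 2.

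**Figure D2:**
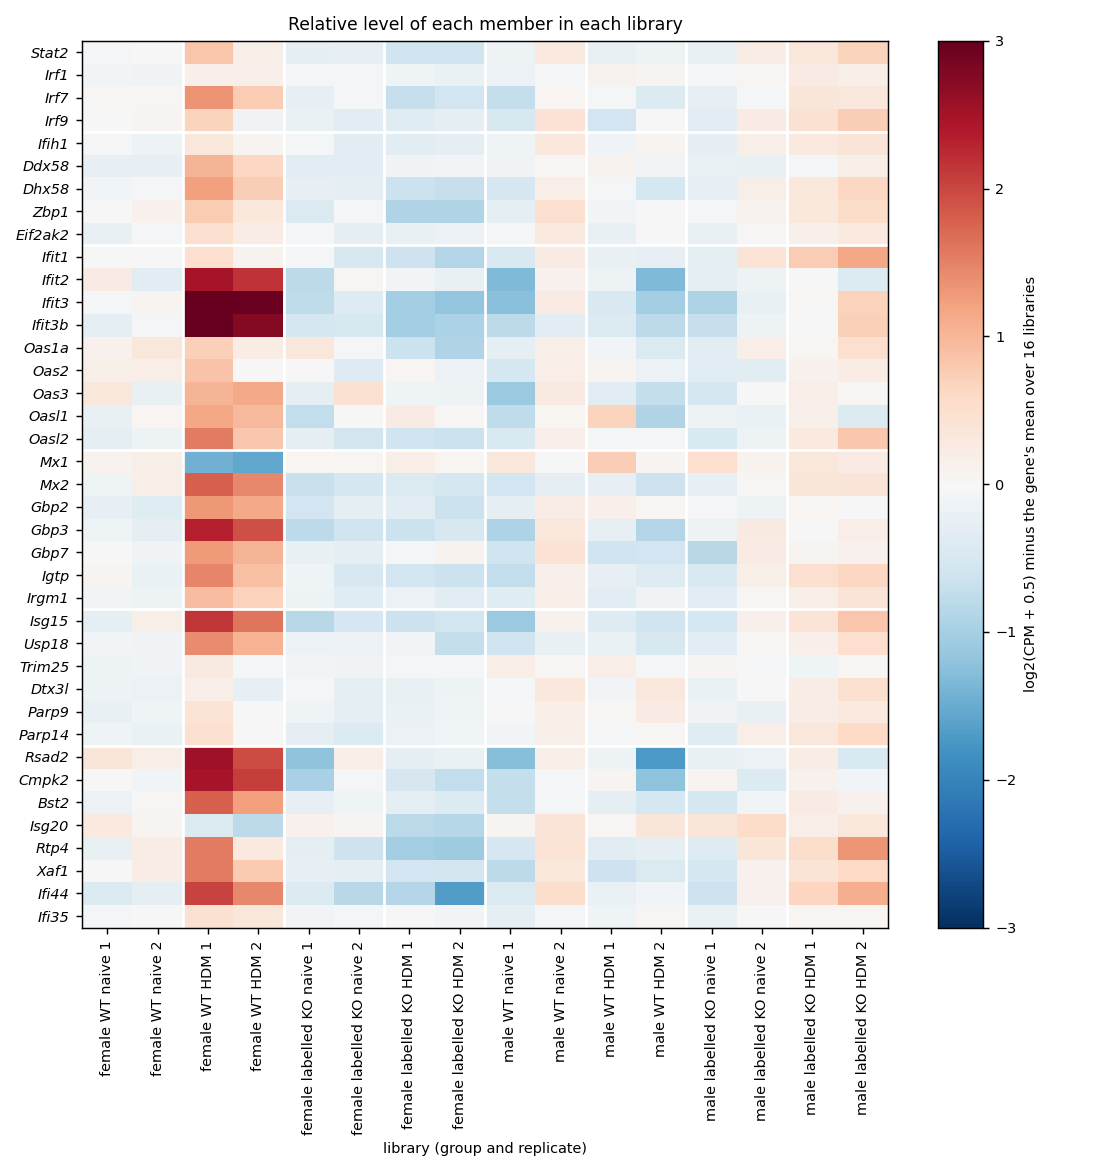
Relative level of each member (rows) in each library (columns): log2(CPM + 0.5) minus the gene's mean over 16 libraries, red above and blue below that mean. The 2 female WT HDM columns are mostly red, with a median over members of 1.17 and 0.73, and Mx1 is blue there; no other library has a median above 0.38.

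In female labelled KO cultures 0 members were higher after HDM and 2 were lower (edgeR's test; 3 members at an unadjusted p under 0.05). Oas1a fell by 1.05 ± 0.30 on the log2 scale (adjusted p = 0.049) and Isg20 by 0.95 ± 0.15 (adjusted p = 0.00302), while 4.63% of all genes were higher and 5.77% lower. The other one at that level was Zbp1, and DESeq2 called 2 members. The median over the members was -0.11. Lman1 was 12.8 CPM in both naive libraries of this arm and 66.6 and 78.1 in the HDM libraries. The effect of HDM and this difference in Lman1 cannot be told apart here. Oas1a was 5.53 and 4.09 CPM in naive and 2.58 and 2.08 in HDM libraries, and these HDM values were the lowest of the 16. The call of Oas1a was lost when any 1 of the 4 libraries was left out, and that of Isg20 held in each case.

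In male WT cultures no member was called, nor was any gene (0.00% of genes). One member, Irf1, had an unadjusted p under 0.05 in edgeR's test, at 0.20 ± 0.06, and DESeq2 called 0 members. The median was -0.10, and it depended on the naive libraries: without replicate 1 it was -0.40 and without replicate 2 it was 0.28. The naive libraries differed, since 37 of 39 members were higher in replicate 2, with a median log2 difference of 0.67.

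In male labelled KO cultures no member and no gene was called either (0.00%), and DESeq2 also called 0 members. Here 36 of 39 estimates were positive, 16 members had an unadjusted p under 0.05 in edgeR's test, and the median was 0.43. Ifi44 had the largest estimate, 1.11 ± 0.37 (adjusted p = 0.781). It was 8.03 and 13.7 CPM in naive and 19.9 and 27.2 in HDM libraries, so that both HDM values were above both naive values. Ifit1 gave 0.87 ± 0.27, from 25.3 and 40.5 CPM in naive to 52 and 68.4 in HDM libraries. One naive library, replicate 2, held Lman1 at 52.6% of the WT mean, and without it the median member estimate was 0.69, still with 0 members called.

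**Figure D3:**
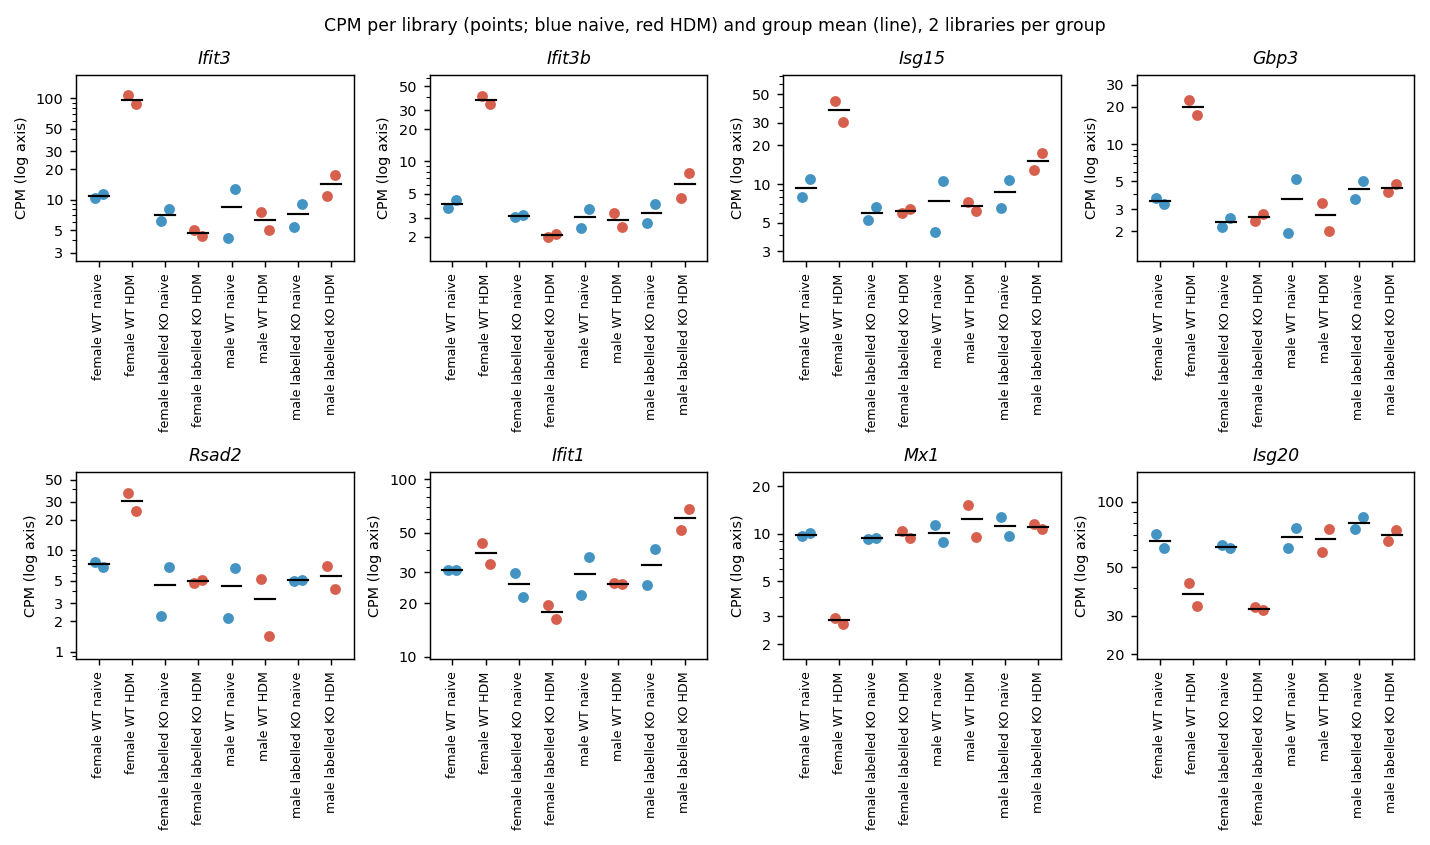
CPM (y axis, log scale) of 8 members in each of the 16 libraries, as points by group (x axis; blue naive, red HDM), with the group mean as a line. Ifit3, Ifit3b, Isg15, Gbp3 and Rsad2 are highest in female WT HDM, Ifit1 is highest in male labelled KO HDM (52 and 68.4 CPM), Mx1 is lowest in female WT HDM (2.95 and 2.7), and Isg20 is lowest in the 4 female HDM libraries.

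The second question was whether the sexes differed. In naive WT cultures 0 members were called male against female in edgeR's test (0.100% of genes were called; 1 member, Mx2, at an unadjusted p under 0.05; DESeq2 0 members). In naive labelled KO cultures 0 were called (0.188% of genes; 3 members, Mx2, Gbp3 and Isg20, at an unadjusted p under 0.05; DESeq2 0 members). After HDM the WT sexes differed in 28 members. Of these, 26 were lower in males (20.3% of genes were lower) and 2, Mx1 and Isg20, were higher (21.3% of genes). Ifit3 was 15.4-fold lower in males (log2 -3.94 ± 0.45, adjusted p = 4.95e-05), Gbp3 -2.89 ± 0.40 (adjusted p = 0.000168), Isg15 -2.48 ± 0.39 (adjusted p = 0.000404) and Mx1 2.13 ± 0.23 higher (adjusted p = 2.98e-05).

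After HDM in labelled KO cultures the direction was the opposite. There 25 members were higher in males and 0 lower, while 12.9% of all genes were higher and 12.4% lower, and 27 members had an unadjusted p under 0.05 in edgeR's test (DESeq2 called 26). Ifi44 had the largest difference, 2.21 ± 0.39 (adjusted p = 0.00202), followed by Rtp4, a receptor chaperone, at 2.15 ± 0.46 (adjusted p = 0.00619), and Ifit1 at 1.74 ± 0.28 (adjusted p = 0.00109). Ifit1 was 52 and 68.4 CPM in male and 19.7 and 16.3 CPM in female labelled KO HDM libraries, with no overlap. The count was sensitive to the libraries: leaving out male replicate 1, male replicate 2, female replicate 1 and female replicate 2 gave 14, 7, 13 and 8 members.

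The third question was whether genotype made a difference. In naive females 0 members were called labelled KO against WT in edgeR's test (0.00% of genes; 1 member, Mx2, at an unadjusted p under 0.05; DESeq2 0 members). In naive males 0 were called (0.00% of genes; 0 members at an unadjusted p under 0.05; DESeq2 0 members). Lman1 itself was not called in either, at -3.26 ± 0.48 (adjusted p = 0.403) in naive females and -1.65 ± 0.45 (adjusted p = 0.879) in naive males, so these comparisons did not call even a large difference in 1 gene. In females after HDM 31 members were lower in labelled KO cultures (14.3% of genes) and 1, Mx1, was higher (14.9% of genes). The changes of Ifit3 and Ifit3b were -4.37 ± 0.47 and -4.18 ± 0.31 (adjusted p = 0.000121 and 9.49e-06), and those of Ifi44 and Cmpk2 were -3.10 ± 0.40 and -3.05 ± 0.46. The 2 groups in this comparison differed in secretory and basal markers as given above, and Lman1 gave a log2 difference of -0.59 ± 0.44 (adjusted p = 0.331). In males after HDM 0 members were called (0.00% of genes), 19 members had an unadjusted p under 0.05, and DESeq2 called 3. There Ifit1 gave 1.22 ± 0.27 (adjusted p = 0.159) and Rtp4 1.31 ± 0.44 (adjusted p = 0.194), and Lman1 -0.96 ± 0.44 (adjusted p = 0.274).

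Whether the HDM response itself differed was tested by interaction terms. Between the sexes in WT, 21 members were called. In 19 the log2 fold change was lower in males (11.3% of genes were lower), and in 2, Mx1 and Isg20, which fell in female WT cultures, it was higher (12.8% of genes). Between genotypes in females, 19 were called, 18 with a lower log2 fold change in labelled KO cultures (5.08% of genes) and 1, Mx1, with a higher one (6.16%). These comparisons share the female WT libraries, and 16 members were called in both. In the female labelled KO arm Lman1 was 10.6% of the WT mean in both naive libraries and 55.3% and 64.8% in the HDM libraries. A different HDM response and this difference in Lman1 therefore cannot be told apart in the comparison between genotypes. The count in WT fell from 21 to 10 without male naive replicate 2 and to 13 without female naive replicate 1. The count between genotypes fell from 19 to between 6 and 13 with any 1 library left out, and was 6 without female WT naive replicate 1. Between the sexes in labelled KO 0 members were called in edgeR's test (1.77% of genes higher and 1.79% lower), 14 had an unadjusted p under 0.05, and DESeq2 called 8. Between genotypes in males 0 were called (0.00% of genes), 10 had an unadjusted p under 0.05, and DESeq2 called 0.

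The rest of the interferon pathway was read from a list of 138 genes, of which 136 matched an identifier and 109 were tested. After HDM in female WT cultures 47 rose (43.1%, against 20.6% of all genes) and 19 fell (17.4%, against 22.4%). In female labelled KO cultures 5 rose and 8 fell (4.59% and 7.34%), near the shares over all genes of 4.63% and 5.77%. Transcripts for the ligands were almost not seen. Of 21 matched interferon genes, 6 had a count in any library, and only Ifnz exceeded 3 counts in any library, with at most 7. Ifnb1 had at most 2 counts in a library and no more than 1 in the female WT HDM libraries. A floor of 3 counts corresponds to 0.0674 to 0.142 CPM, so levels below that were not detectable at this depth.

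The receptors and signal transducers were expressed. After HDM 4 of 6 receptors rose in female WT cultures (66.7%, against 20.6% of all genes). Of 6 kinases and STATs there, 1 rose and 3 fell (16.7% and 50%, against 20.6% and 22.4% of all genes). In female WT cultures the type I receptor subunits Ifnar1 and Ifnar2 rose by 0.16 ± 0.06 and 0.31 ± 0.09 on the log2 scale (adjusted p = 0.0442 and 0.0159). Ifngr1, the ligand-binding chain for interferon gamma, was 69.5 and 68.1 CPM in naive and 105 and 140 in HDM libraries, a rise of 0.83 ± 0.13 (adjusted p = 0.000346). Ifnlr1, the specific chain for type III interferons, rose by 0.87 ± 0.11 (adjusted p = 0.000121) and also by 0.62 ± 0.11 in female labelled KO cultures (adjusted p = 0.0067). Ifngr2 and Il10rb did not pass in female WT cultures, and Il10rb fell by 0.40 ± 0.09 in female labelled KO cultures (adjusted p = 0.0154). In female WT cultures Stat3 and Stat6 fell by 1.00 ± 0.15 and 0.48 ± 0.08 (adjusted p = 0.000257 and 0.000589), the kinase gene Tyk2 fell by 0.27 ± 0.08 (adjusted p = 0.0173), and Jak1 and Jak2 did not pass.

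**Figure D4:**
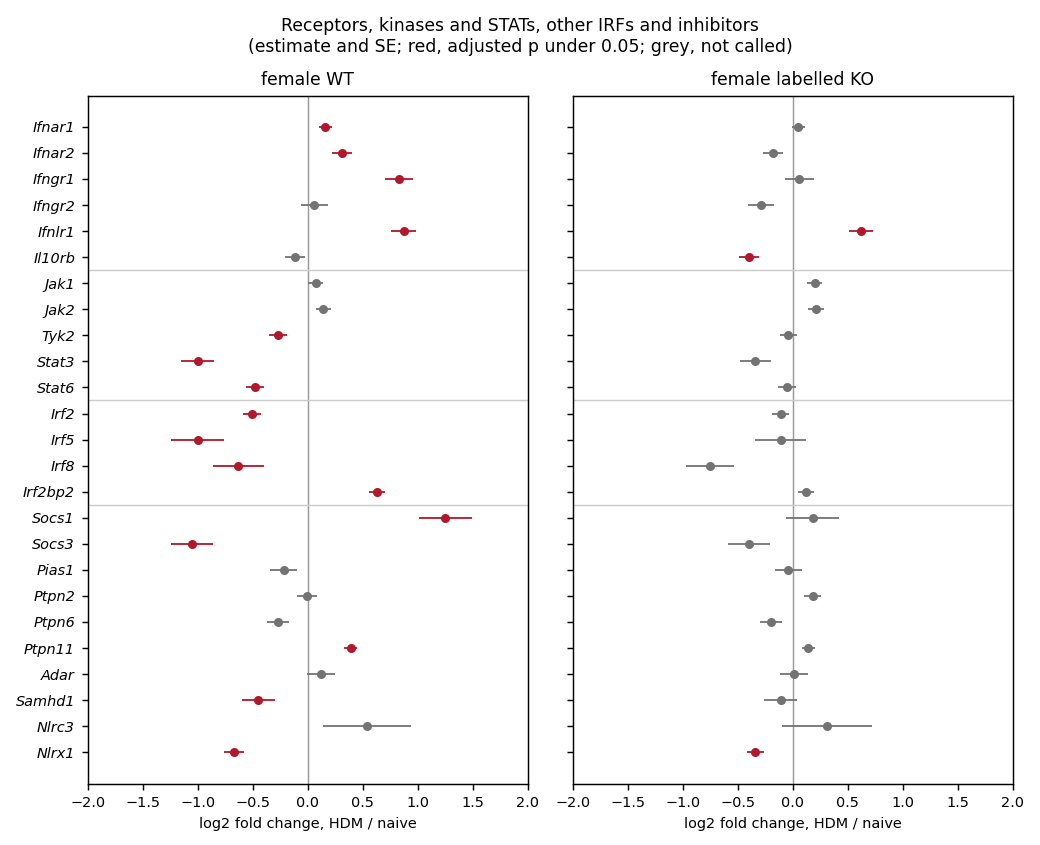
log2 fold change after HDM (x axis) with its SE for receptors, kinases and STATs, other interferon regulatory factors and inhibitors (y axis, separated by grey lines) in female WT and female labelled KO cultures, 2 libraries per group; red points passed an adjusted p of 0.05. In female WT 4 of 6 receptors rose (66.7%, against 20.6% of all genes), Stat3 and Stat6 fell, and Socs1 rose while Socs3 fell. In female labelled KO 3 points are red, Ifnlr1 to the right, Il10rb and Nlrx1 to the left.

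Upstream of the ligands, Tlr3, the endosomal sensor of double-stranded RNA, had the largest rise among 14 tested sensors, adaptors and kinases. Of the 14, 4 rose and 5 fell in female WT cultures, 28.6% and 35.7% against 20.6% and 22.4% of all genes. Tlr3 was 24.7 and 25.9 CPM in naive and 180 and 164 in HDM libraries of female WT, a change of 2.76 ± 0.16 (adjusted p = 4.81e-07). It also rose by 1.26 ± 0.16 in female labelled KO cultures (adjusted p = 0.000901). Traf3 and Ikbke, which link sensors to interferon induction, both rose by 0.92 in female WT cultures (adjusted p = 2.21e-05 and 0.00888). Tlr4, Myd88, Tmem173 (STING), Ticam1 and Tbk1 fell there, by 0.78, 0.56, 0.52, 0.33 and 0.19 on the log2 scale. Of 5 genes listed as other interferon regulatory factors, 1 rose and 4 fell in female WT cultures (20% and 80%, against 20.6% and 22.4% of all genes). Irf2bp2, which encodes a corepressor that binds IRF2, rose by 0.63, and Irf2, Irf5 and Irf8 were among those that fell. Among 10 inhibitors 2 rose and 3 fell, shares of 20% and 30% that lie near those over all genes. Socs1, which blocks JAK kinases, was 1.96 and 2.16 CPM in naive and 4.87 and 4.97 in HDM libraries, a rise of 1.25 ± 0.24 (adjusted p = 0.00136), while Socs3, its relative acting on STAT3 signals, fell by 1.05 ± 0.19 (adjusted p = 0.00114).

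Of the 68 other interferon-stimulated genes on the pathway list that were tested, 35 rose and 4 fell in female WT cultures. These are 51.5% and 5.88%, against 20.6% and 22.4% of all genes. In female labelled KO cultures 1 rose and 6 fell, 1.47% and 8.82%, against 4.63% and 5.77% of all genes. Those with the largest change and a mean of at least 1 CPM were Ifitm1, Tgtp1 and Gbp9. Ifitm1, which restricts virus entry, was 205 and 191 CPM in naive and 4.83 and 6.82 in HDM libraries of female WT, a fall of 5.09 ± 0.33 on the log2 scale (adjusted p = 7.67e-07), and it fell by 1.54 ± 0.26 in female labelled KO cultures (adjusted p = 0.0044). Tgtp1, an immunity-related GTPase, was 2.47 and 2.29 CPM in naive and 34.2 and 29.3 in HDM libraries, a rise of 3.74 ± 0.36 (adjusted p = 1.29e-05). Gbp9 was 2.25 and 1.96 CPM in naive and 19.6 and 12.9 in HDM libraries, a rise of 2.95 ± 0.35 (adjusted p = 5.64e-05). In female WT HDM libraries Tgtp1 and Gbp9 were above, and Ifitm1 below, all other 14 libraries.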

How the data were processed

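RNA was isolated with a column kit, and libraries were made by mRNA enrichment, fragmentation, random priming and PCR. The deposited table holds unnormalized whole-number counts by Ensembl identifier, made by the authors; the submitters' processing notes list Trimmomatic 0.36, STAR 2.5.2b, featureCounts, Subread 1.5.2, DESeq2 and GRCm38. Strand, multimapping and annotation release are not given in the sources used here. All 16 count columns were used; a column without a replicate number was matched to replicate 1 by its remaining labels. Symbols came from GENCODE M21, promoters from RefSeq. Members and lists were chosen with earlier results of these data known.

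Genes were filtered with filterByExpr, scaled by TMM and tested with edgeR 4.0.16 in R 4.3.3 (quasi-likelihood, 8 group means, all 16 libraries, Benjamini-Hochberg within each of 16 comparisons, adjusted p under 0.05); the code was tested on simulated data. The paper states no test for these data. All 39 members could be named. Values per library were given for up to 2 called members per class and direction with the largest change in female WT cultures, for members called elsewhere in an HDM response, for Ifit3 and Ifit3b, and for members whose pattern was noticed afterwards (Ifit1, Rsad2). Whether replicates came from separate mice is not stated beyond their label as biological replicates, so p-values measure the spread between these libraries. Alternatives were DESeq2 1.42.0, upper-quartile and library-size scaling, dropping the filter, requiring 10 counts in each library, fitting the compared groups alone, a replicate block, and each library left out. Values of some pathway genes are not reported here. Floors of 3 counts cover counting error only.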

Additional observations from a re-analysis of the deposited data

Results flagged for a closer look

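The HDM response of 21 members differed between male and female WT cultures by the interaction test (male minus female log2 fold change, edgeR, adjusted p under 0.05). Among the RNA and DNA sensors, the difference was -1.06 for Ddx58, -1.29 for Dhx58 and -0.74 for Eif2ak2. Among the IFIT and OAS RNA binders, the difference was -2.68 for Ifit2, -3.58 for Ifit3, -3.26 for Ifit3b and -1.41 for Oasl2. Among the dynamin-like and immunity-related GTPases, the difference was 2.10 for Mx1, -2.05 for Mx2, -1.44 for Gbp2, -2.93 for Gbp3, -2.13 for Gbp7, -1.42 for Igtp and -1.09 for Irgm1. Among the ISG15 system and ubiquitin ligases, the difference was -2.12 for Isg15 and -1.30 for Usp18. Among the other antiviral effectors, the difference was -2.52 for Cmpk2, -1.66 for Bst2, 0.77 for Isg20, -1.68 for Xaf1 and -2.45 for Ifi44.

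The HDM response of 19 members differed between female labelled KO and female WT cultures by the same test (labelled KO minus WT). Among the transcription factors, the difference was -0.34 for Irf1 and -1.55 for Irf7. Among the RNA and DNA sensors, the difference was -0.85 for Ddx58, -1.58 for Dhx58 and -1.27 for Zbp1. Among the IFIT and OAS RNA binders, the difference was -3.75 for Ifit3, -3.79 for Ifit3b and -1.68 for Oasl2. Among the dynamin-like and immunity-related GTPases, the difference was 1.89 for Mx1, -1.81 for Mx2, -1.64 for Gbp2, -2.37 for Gbp3, -1.67 for Igtp and -0.94 for Irgm1. Among the ISG15 system and ubiquitin ligases, the difference was -1.92 for Isg15 and -1.56 for Usp18. Among the other antiviral effectors, the difference was -2.62 for Cmpk2, -1.77 for Bst2 and -2.82 for Ifi44. Both tests use the 4 female WT libraries, so they are not independent. The libraries labelled KO that were given HDM retained Lman1 at 53.9% to 64.8% of the WT mean. The female labelled KO naive libraries held 10.6%, so HDM and the Lman1 level cannot be told apart in that arm.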

How the results depend on the processing

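Counts of called members changed with the filter, the test, the fitted libraries and single libraries, to different degrees between comparisons. With no filter on low counts, members called became 8 in the female labelled KO HDM response, 14 in the male labelled KO HDM response, 1 and 2 in the naive sex differences (WT and labelled KO), 2 in the naive female genotype difference, 19 in the male HDM genotype difference, 17 in the sex by HDM interaction in labelled KO and 11 in the male genotype by HDM interaction. With only the compared libraries, the female labelled KO HDM response had 5. In the male HDM genotype difference DESeq2 called 3 and the replicate block 9, against 0. In the labelled KO sex by HDM interaction, against 0, DESeq2 called 8, upper-quartile scaling 1, the filter of at least 10 counts 1, only the compared libraries 3 and the replicate block 4. The cause of these differences was not tested. With each library left out, members called ran from 19 to 30 (female WT HDM response), 1 to 1 (female labelled KO HDM response), 24 to 28 (WT sex difference after HDM), 7 to 14 (labelled KO sex difference after HDM), 23 to 29 (female HDM genotype difference), 10 to 25 (WT sex by HDM interaction), 6 to 13 (female genotype by HDM interaction) and 0 to 5 (labelled KO sex by HDM interaction, 5 without male labelled KO naive replicate 2, the library with Lman1 at 52.6% of the WT mean), and stayed at 0 in the other 8 comparisons. Of the 27 members called in the female WT HDM response, 24 were called under all 7 other settings, 18 with each of the 4 libraries left out, and none reversed.

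Correlations of same-numbered deviations ran from -0.164 to 0.483 over 12 pairs of groups. They were 0.150 to 0.437 over the 4 pairs of WT groups and -0.164 to 0.483 over pairs with a labelled KO group. The highest, 0.483, was between male WT naive and male labelled KO naive cultures. A shared origin is not excluded for either kind of pair. The labels name no shared origin, and the samples were treated as sharing only a number. Beyond the changes given above, the replicate block called 28 members in the female WT HDM response, 28 in the WT sex difference after HDM, 17 in the labelled KO sex difference after HDM, 22 in the WT sex by HDM interaction and 21 in the female genotype by HDM interaction. Of the 27 members called in the female WT HDM response, Stat2 and Parp9 lost their call with library-size scaling and with the compared libraries alone, and Irf1 with library-size scaling and with no filter. Interferon ligand transcripts under 3 counts a library were not detectable at this depth.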
